A study of Mus musculus with 20 samples.

Results

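The comparison described here is that of livers treated with T3 alone against control livers, at the level of every gene counted. Its members are the 8 libraries whose treatment label is T3 or Control, 4 of each, out of 20 libraries in the series. Each library is the liver RNA of 1 mouse. Control and T3 mice were all males fed a western diet, and each was treated every day over 16 days. T3 (triiodothyronine) is the active thyroid hormone. The other groups of the series are glucagon, glucagon with T3, and a set coded Cp, and of these only glucagon and glucagon with T3 (the combination) are used below. Strain, age, dose, route, the treatment given to controls and the hour at which livers were taken are not stated in the labels. The labels place the 4 T3 libraries in sequencing lane 5 and the controls in lanes 1 to 4, so lane and treatment cannot be told apart in this comparison.

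T3 enters hepatocytes through membrane transporters and binds nuclear receptors, of which the beta form (Thrb) predominates in liver. The receptors sit on DNA as partners of RXR, hold corepressors such as Ncor1 when empty and exchange them for coactivators when T3 binds. In liver the hormone is known for raising deiodinase 1, lipogenic enzymes, mitochondrial glycerol phosphate dehydrogenase and Cyp7a1, which catalyses the committed step from cholesterol to bile acids, and for lowering circulating cholesterol.

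The receptors recognise AGGTCA half-sites, and upstream sequences of 4 genes are shown because their calls did not depend on any 1 library and each holds that half-site once. Each line gives the 250 bases before the RefSeq transcript start (GRCm38.p6), which in these genes is the outer end of the gene, 5′ to 3′ on the gene's strand, with the half-site or its reverse complement in capitals. Ugt2b37 and Clec4f rose after T3, while Insig1 and Cyp3a11 fell.

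Ugt2b37 (chr5:87254789-87255038, minus strand): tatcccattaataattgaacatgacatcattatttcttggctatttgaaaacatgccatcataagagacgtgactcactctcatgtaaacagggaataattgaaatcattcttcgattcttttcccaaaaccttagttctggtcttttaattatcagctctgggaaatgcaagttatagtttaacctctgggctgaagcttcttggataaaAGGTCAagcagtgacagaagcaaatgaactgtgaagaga
Clec4f (chr6:83656117-83656366, minus strand): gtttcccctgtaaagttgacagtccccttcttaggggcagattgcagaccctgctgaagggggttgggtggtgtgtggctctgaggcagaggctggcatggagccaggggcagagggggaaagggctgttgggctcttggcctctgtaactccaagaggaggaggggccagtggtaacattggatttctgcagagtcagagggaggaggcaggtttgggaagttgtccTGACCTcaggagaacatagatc
Insig1 (chr5:28071162-28071411, plus strand): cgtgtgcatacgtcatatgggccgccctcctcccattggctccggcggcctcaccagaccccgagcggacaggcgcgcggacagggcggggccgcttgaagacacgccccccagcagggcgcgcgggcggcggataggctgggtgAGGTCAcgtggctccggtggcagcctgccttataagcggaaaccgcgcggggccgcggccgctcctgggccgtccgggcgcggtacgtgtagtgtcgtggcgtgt
Cyp3a11 (chr5:145879855-145880104, minus strand): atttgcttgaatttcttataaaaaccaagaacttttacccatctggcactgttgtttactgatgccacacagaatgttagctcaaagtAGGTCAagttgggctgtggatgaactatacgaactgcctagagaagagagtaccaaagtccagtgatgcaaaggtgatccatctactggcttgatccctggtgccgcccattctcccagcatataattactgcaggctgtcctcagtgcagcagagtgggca

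The half-site began 39 bases before the start in Ugt2b37, 22 in Clec4f, 105 in Insig1 and 162 in Cyp3a11. The letters AGGTCA, searched on both strands, were present in the 250 upstream bases of 1175 of the 8692 tested genes with a RefSeq window (13.5%). The share was 20% among raised genes (39 of 195 with a window) and 20.1% among lowered genes (33 of 164). The window began at the outer end of the gene in 4661 of the 8692 genes (53.6%), and elsewhere at a transcript start inside it. Within those 4661 genes the half-site was present in 11.2% of all, 14.9% of raised (13 of 87) and 19.4% of lowered genes (20 of 103). An exact direct repeat of AGGTCA with 4 bases between the copies, on either strand, occurred in none of these windows. A match is a description of the letters in this window only.

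T3 livers had 6091917 to 7996156 counts and controls 11562213 to 23195658. Values are CPM, counts scaled to the TMM-normalised library size. Means carry the SD over 4 livers. Changes are log2 differences, T3 minus control, with their standard error from edgeR's quasi-likelihood fit on the 8 libraries. A level of 3 counts corresponds to 0.359 to 0.481 CPM in T3 libraries and 0.146 to 0.288 CPM in controls. The 17 hepatocyte markers summed to 182477 to 316136 CPM in controls and 133663 to 179214 CPM after T3, so by this sum every T3 liver was below every control. Alb was the largest part of each sum. Alone it overlapped, at 104417 to 228064 CPM in controls and 64376 to 107024 CPM after T3. Of the 17 changes 6 were above 0. None of the 17 was called by edgeR (1 higher and 3 lower at an unadjusted p under 0.05, 0 higher and 4 lower by DESeq2). The controls varied more among themselves than the T3 livers, with a biological coefficient of variation of 40.6% against 18.9%. Control 1 held the highest share of Alb (18.2% of its counts), and control 2 stood apart by interferon-induced genes (3113 CPM summed, against 304 to 493 CPM in the other controls) and by skeletal muscle genes (1136 CPM against 66.9 to 95.7 CPM).

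Of 12015 genes tested, 503 passed an adjusted p of 0.05 (4.19%), 270 higher (2.25%) and 233 lower (1.94%) after T3. The median change was 1.46 among raised and -1.58 among lowered genes, against -0.03 over all genes tested. A change of at least 1 on the log2 scale was reached by 238 raised and 205 lowered genes, and of at least 3 by 41 raised and 20 lowered genes. In 486 of the 503 genes the 4 T3 livers lay wholly above or wholly below the 4 controls, which was true of 7.98% (above) and 7.73% (below) of all genes tested. When each library was left out in turn, 167 genes were called in all 8 fits and 336 lost their call in at least 1. The count ranged from 188 without T3 liver 4 to 886 without control 2. The latter was 7.44% of genes tested there, 3.87% higher and 3.57% lower. With the spread shared over all 20 libraries 2317 genes were called (18%). Where a call named below ended in this way, the libraries are named beside it with the highest adjusted p reached. Every count over a list from the fit of the 8 libraries is to be read against 2.25% higher and 1.94% lower over all genes tested.

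**Figure D1:**
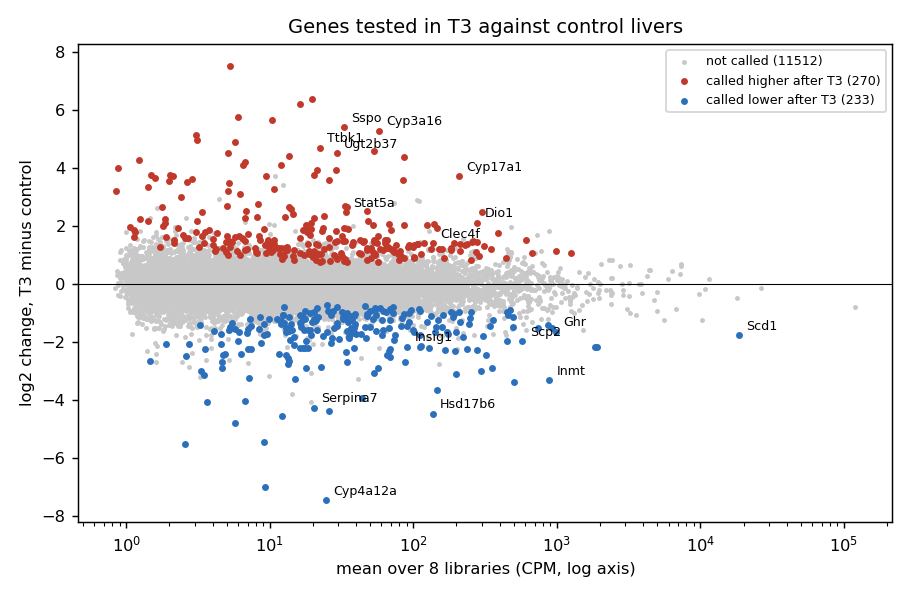
Change after T3 (vertical axis, log2, T3 minus control) against mean level over the 8 libraries (horizontal axis, CPM on a log scale) for the genes tested, each a point. The 270 genes called higher (red) lie above 0 and the 233 called lower (blue) below it.

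Changes were ranked among called genes without overlap and with a mean of at least 20 CPM, predicted symbols left out. The lack of overlap in every ranked gene follows from that rule and adds no support to its change. In this ranking the largest rises were in genes at low level in control liver. Among genes averaging under 20 CPM some rose more, such as Cux2 and Akr1c18, given below. Sspo, which encodes the large secreted protein SCO-spondin best known from brain, measured 1.19, 0.586, 2.88 and 1.66 CPM in controls 1 to 4 and 73.1, 84.6, 47.98 and 50.5 CPM in T3 livers 1 to 4. Its change was 5.41 ± 0.44 (adjusted p = 0.000182), and the lowest T3 liver stood far above the highest control. Ttbk1, a kinase of tau protein, measured 1.402, 0.3904, 2.78 and 2.27 CPM in controls 1 to 4 and 39.03, 46.7, 39.6 and 46.99 CPM in T3 livers 1 to 4, a change of 4.71 ± 0.45 (adjusted p = 0.000388). The 4 T3 livers lay close together for Ttbk1, with means of 1.71 ± 1.05 CPM in controls and 43.1 ± 4.35 CPM after T3. Cyp3a16, a P450 of the Cyp3a cluster, measured 2.97, 2.05, 2.4005 and 4.08 CPM in controls 1 to 4 and 299, 38.1, 72.9 and 38.8 CPM in T3 livers 1 to 4, a change of 5.29 ± 0.71. T3 liver 1 was far above the other T3 livers for this gene, and all of them exceeded the controls.

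Among the 15 highest changes of this ranking, several genes encode enzymes and carriers that handle foreign compounds and steroids. Ugt2b37, a glucuronosyltransferase, measured 2.37, 3.71, 1.92 and 1.66 CPM in controls 1 to 4 and 34.4, 48.9, 80.7 and 61.4 CPM in T3 livers 1 to 4, a change of 4.51 ± 0.35 (adjusted p = 0.000182). Cyp17a1, the steroid hydroxylase and lyase of androgen synthesis, measured 32.7, 38.7, 11.9 and 34.5 CPM in controls 1 to 4 and 589, 278, 375 and 318 CPM in T3 livers 1 to 4, a change of 3.72 ± 0.396 (adjusted p = 0.000748). Absence of overlap was a condition of the ranking for both genes. The carboxylesterase Ces4a changed by 4.59 ± 0.69, the P450 Cyp4a31 by 3.95 ± 0.55, the sulfotransferase Sult5a1 by 3.59 ± 0.34 and the organic anion carrier Slc22a7 by 3.59 ± 0.43. The chemokine gene Cxcl14 measured 3.29, 13.3, 4.99 and 9.598 CPM in controls 1 to 4 and 36.4, 69.9, 213 and 341 CPM in T3 livers 1 to 4, so T3 livers were all higher but spread over a wide range.

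The remaining members of the highest 15 in this ranking were Pfkfb4, Nt5e, Mup5, Synpo and Bcl3. Pfkfb4, an enzyme that regulates glycolysis, changed by 3.93 ± 0.53, the ectonucleotidase gene Nt5e by 2.69 ± 0.33 and the actin-binding Synpo by 2.503 ± 0.42. The urinary protein gene Mup5 rose by 2.66 ± 0.59, and it belongs to a cluster of near-identical copies between which reads can be split. Mup5 lost its call without control 3, control 4, T3 liver 2, T3 liver 3 or T3 liver 4 (adjusted p up to 0.0932). Bcl3 lost its call without control 4, T3 liver 2 or T3 liver 4 (adjusted p up to 0.0599). Below 20 CPM and chosen after their values were seen, Akr1c18 and Fndc5 were also raised. Akr1c18, a hydroxysteroid dehydrogenase that inactivates progesterone, averaged 0.427 ± 0.208 CPM in controls and 32.3 ± 19.03 CPM after T3, a change of 6.205 ± 0.53. Fndc5, the precursor of irisin, averaged 1.28 ± 0.623 CPM in controls and 17.5 ± 3.02 CPM after T3.

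In the same ranking, the deepest falls included male-biased genes and a hormone carrier of liver. Cyp4a12b, Ppp1r3c and Cyp2c67 averaged under 20 CPM, so they were not ranked and are given below. Cyp4a12a, a male-biased fatty acid hydroxylase, measured 77.9, 21.1, 69.4 and 26.3 CPM in controls 1 to 4 and 0, 0.264, 0.479 and 0.321 CPM in T3 livers 1 to 4. Its fitted change was -7.47 ± 0.68 (adjusted p = 0.000280), and because the T3 values lie near the level of 3 counts the size of that change is imprecise. Hsd17b6, which takes part in androgen breakdown, measured 418, 308, 215 and 107 CPM in controls 1 to 4 and 20.9, 14.8, 6.82 and 4.33 CPM in T3 livers 1 to 4, a change of -4.48 ± 0.56 (adjusted p = 0.00154). Serpina7, the thyroxine-binding globulin that carries thyroid hormone in blood, measured 53.3, 41.7, 21.4 and 38.2 CPM in controls 1 to 4 and 2.59, 1.06, 2.27 and 2.08 CPM in T3 livers 1 to 4, a change of -4.26 ± 0.36 (adjusted p = 0.000182). For Cyp4a12a, Hsd17b6 and Serpina7 absence of overlap was again a condition of the ranking.

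Further falls among the lowest 15 reached enzymes of amine, nitrogen and lipid handling. Agxt2l1, which breaks down phosphoethanolamine, fell from a mean of 49.5 to 2.34 CPM (-4.38 ± 0.49). The methyltransferase gene Inmt measured 2443, 322, 1668 and 2008 CPM in controls 1 to 4 and 88.8, 268, 110.4 and 179.9 CPM in T3 livers 1 to 4, and control 2 was the lowest control while still above every T3 liver. The NADPH oxidase Nox4 changed by -3.05 ± 0.51, Keg1 by -3.09 ± 0.37, the P450 Cyp2c44 by -2.997 ± 0.398, the urinary protein Mup20 by -2.91 ± 0.498, the aldo-keto reductase Akr1c19 by -2.88 ± 0.39 and Fam13a by -2.69 ± 0.45. Abcc3, the export pump for bile salts and conjugates on the blood side of hepatocytes, measured 139, 82.3, 159 and 226 CPM in controls 1 to 4 and 26.7, 17.9, 23.3 and 24.9 CPM in T3 livers 1 to 4, a change of -2.71 ± 0.302 (adjusted p = 0.000899). The succinate receptor Sucnr1 (-3.94 ± 0.73), the dimethylarginine hydrolase Ddah1 (-3.67 ± 0.69) and the P450 Cyp2d9 (-2.91 ± 0.54) also fell. Sucnr1 lost its call without T3 liver 3 or T3 liver 4 (adjusted p up to 0.0595). Ddah1 lost its call without T3 liver 2 or T3 liver 3 (adjusted p up to 0.0591). Cyp2d9 lost its call without T3 liver 3 (adjusted p up to 0.0561).

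**Figure D2:**
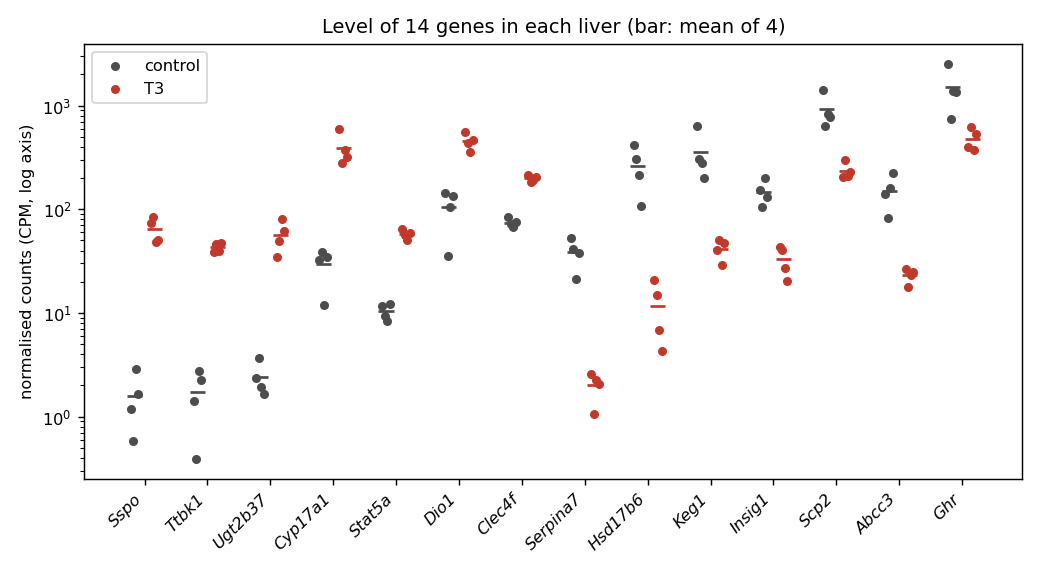
Normalised counts (CPM, log axis) of 14 genes named in the text in each of the 4 control (grey) and 4 T3 (red) livers, with the mean of 4 as a bar. For every gene drawn, the 4 T3 points lie on one side of the 4 control points.

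Of the hormone's own machinery, the receptors were not called. Thra, the alpha receptor, averaged 19.5 ± 2.16 CPM in controls and 12.1 ± 2.11 CPM after T3 (-0.69 ± 0.203, adjusted p = 0.0816), and Thrb averaged 30.6 ± 8.603 CPM in controls and 22.3 ± 2.17 CPM after T3 (-0.46 ± 0.22, adjusted p = 0.250). The 4 T3 livers were below all controls for Thra and overlapped them for Thrb. Thra was called with the spread shared over 20 libraries (adjusted p = 0.0245). Of the 17 receptors, partners and corepressors tested none was called higher and 1 lower, the corepressor-complex subunit Tbl1x, which averaged 21.9 ± 5.94 CPM in controls and 10.3 ± 1.92 CPM after T3. The corepressor Ncor1 changed by -0.07 ± 0.201 (adjusted p = 0.858), with overlap. Tbl1x lost its call without each T3 liver (adjusted p up to 0.112).

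Of 16 tested genes of hormone entry, conversion and binding, 2 were higher and 1, Serpina7, was lower. Dio1, the deiodinase that converts thyroxine to T3 and a standard readout of the hormone in liver, measured 144, 35.6, 105 and 134 CPM in controls 1 to 4 and 551, 436, 358 and 463 CPM in T3 livers 1 to 4, a change of 2.11 ± 0.38 (adjusted p = 0.0114). Every T3 liver exceeded every control, with control 2 the lowest. Sult1a1, a sulfotransferase that acts on iodothyronines and other phenols, rose by 1.07 ± 0.24. Transthyretin (Ttr), the other main hormone carrier made in liver, averaged 6554 ± 1011 CPM in controls and 3413 ± 901 CPM after T3 and was not called (-0.94 ± 0.27, adjusted p = 0.0815), although all T3 livers were below all controls. Ttr was called without control 2 (adjusted p = 0.0493) and with the shared spread (adjusted p = 0.00222). The carrier Slc16a10 (0.51 ± 0.24, adjusted p = 0.228) and the cytosolic binding protein Crym (-0.17 ± 0.56, adjusted p = 0.885) were not called. Sult1a1 lost its call without control 3, control 4 or each T3 liver (adjusted p up to 0.118).

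Genes widely described as raised by T3 in liver gave a divided picture. Of 30 tested, 7 were higher and 1 was lower, with a list median of 0.18 (4 higher without T3 liver 2, T3 liver 4 or control 4). Hr, a corepressor regulated by thyroid hormone in many tissues, measured 0.755, 3.95, 0.768 and 3.02 CPM in controls 1 to 4 and 20.2, 9.499, 12.8 and 15.7 CPM in T3 livers 1 to 4, a change of 2.75 ± 0.51. Bcl3, a nuclear coregulator of the NF-kB family, measured 18.1, 139.9, 128 and 77.4 CPM in controls 1 to 4 and 489, 591, 407 and 553 CPM in T3 livers 1 to 4, a change of 2.49 ± 0.497, and control 1 was the lowest. Gpd2, the mitochondrial glycerol phosphate dehydrogenase, averaged 42.1 ± 8.76 CPM in controls and 72.01 ± 4.78 CPM after T3, a change of 0.77 ± 0.19 (adjusted p = 0.0480). The best known lipogenic targets overlapped between groups: Thrsp (-0.21 ± 0.66, adjusted p = 0.876) ranged from 438 to 5842 CPM in controls and from 1395 to 3004 CPM after T3, and Me1 (0.18 ± 0.36, adjusted p = 0.799) was not called. Klf9 (-0.25 ± 0.26, adjusted p = 0.613), Ucp2 (0.91 ± 0.37, adjusted p = 0.180), Atp2a2 (0.18 ± 0.23, adjusted p = 0.686) and Cpt1a (0.56 ± 0.204, adjusted p = 0.141) were not called either, though all T3 livers were above all controls for Cpt1a. Slc2a2, the glucose transporter of hepatocytes, was the member called lower (-1.31 ± 0.31). Gpd2 lost its call without control 2, control 3, control 4 or each T3 liver (adjusted p up to 0.150). Bcl3 lost its call without control 4, T3 liver 2 or T3 liver 4 (adjusted p up to 0.0599). Slc2a2 lost its call without control 1, control 4 or each T3 liver (adjusted p up to 0.145).

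Growth hormone acts on liver through its receptor and the transcription factors STAT5a and STAT5b, and its pulse pattern keeps the expression of many genes male or female. Stat5a measured 11.6, 9.42, 8.35 and 12.2 CPM in controls 1 to 4 and 65.01, 56.99, 50.5 and 59.5 CPM in T3 livers 1 to 4, a change of 2.48 ± 0.199 (adjusted p = 0.000182). Its neighbour Stat5b, which is far more abundant in counts, measured 109.5, 88.8, 144 and 111 CPM in controls 1 to 4 and 274, 223, 249 and 273 CPM in T3 livers 1 to 4, a change of 1.17 ± 0.21 (adjusted p = 0.0102). RefSeq places Stat5b at chr11:100780731-100859004 and Stat5a at chr11:100859351-100885169 on opposite strands, with 346 bases between them. Cux2, a repressor normally confined to female liver, measured 0.539, 0.488, 0.576 and 0.227 CPM in controls 1 to 4 and 101, 5.28, 17.2 and 32.1 CPM in T3 livers 1 to 4, a change of 6.37 ± 0.88 with T3 liver 1 far above the others. The receptor gene Ghr averaged 1503 ± 751 CPM in controls and 481 ± 116 CPM after T3 and was lower (-1.64 ± 0.36). Igf1, the main circulating product of the axis, averaged 714 ± 159 CPM in controls and 843 ± 68.5 CPM after T3 and was not called (0.24 ± 0.22, adjusted p = 0.554). Of 22 tested genes of the axis 3 were higher and 1 lower. Ghr lost its call without each T3 liver (adjusted p up to 0.100).

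Male-biased liver genes were lower in 10 of the 28 tested, against 1.94% of all genes tested, and higher in none, with a median of -1.01. Besides Cyp4a12a, Hsd17b6 and Keg1, these included Cyp4a12b, which measured 20.2, 15.1, 29.2 and 8.99 CPM in controls 1 to 4 and 0.123, 0.264, 0.1197 and 0 CPM in T3 livers 1 to 4 and so lay at or below 3 counts in every T3 liver. Keg1 measured 634, 304, 281 and 200.4 CPM in controls 1 to 4 and 40.1, 50.001, 29.3 and 46.8 CPM in T3 livers 1 to 4. Female-biased genes were higher in 5 of 19 tested and lower in none, with a median of 0.99. Those of smallest p were Cyp17a1, Cyp3a16, Cux2 and Cyp3a44, and Cyp3a44 measured 0.917, 0.634, 0.864 and 2.49 CPM in controls 1 to 4 and 59.1, 10.3, 19.6 and 15.7 CPM in T3 livers 1 to 4. Values within the Cyp4a and Cyp3a clusters depend on how reads of near-copies were assigned. Without control 2 the counts were 10 lower and 1 higher of the male-biased genes and 6 higher of the female-biased genes, where 3.57% of all genes were lower and 3.87% higher. Without T3 liver 3, 6 male-biased genes were lower.

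By number, genes of foreign compound metabolism made up the largest block of lowered genes among the lists. Their conjugation list is a long one, and by share male-biased genes were lower more often (10 of 28). Over all genes tested 1.94% were lower. Of 60 tested conjugation and hydrolysis enzymes 16 were lower and 5 higher, with a median of -0.95 (34 lower and 8 higher when all 20 libraries shared 1 estimate of the spread, in which 10.6% of all genes were lower and 7.31% higher). With 1 library left out the lowered count ran from 8 (without T3 liver 3 or T3 liver 4) to 23 (without control 2). The lowered members of smallest p came from several families. Aox1 (aldehyde oxidase) averaged 116 ± 12.7 CPM in controls and 33.997 ± 7.18 CPM after T3, Gstm6 (a glutathione transferase) 55.99 ± 15.8 CPM in controls and 15.5 ± 1.13 CPM after T3, Ugt1a6a (a glucuronosyltransferase) 19.3 ± 3.07 CPM in controls and 6.74 ± 0.512 CPM after T3 and Ephx1 (microsomal epoxide hydrolase) 732 ± 122 CPM in controls and 259 ± 45.2 CPM after T3. Their changes were -1.77 ± 0.21, -1.85 ± 0.23, -1.52 ± 0.21 and -1.496 ± 0.23, and none overlapped. The 5 raised members were Ugt2b37, Sult5a1, Ces4a, Sult1a1 and Gstt1. Sult1a1 lost its call without control 3, control 4 or each T3 liver (adjusted p up to 0.118). Gstt1 lost its call without control 3, control 4 or each T3 liver (adjusted p up to 0.136).

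Cytochrome P450s and their partners followed with 7 of 35 lower and 3 higher (median -0.51). Cyp3a11, the major drug-metabolising Cyp3a enzyme of mouse liver, measured 656, 504, 284 and 712 CPM in controls 1 to 4 and 111, 114, 92.98 and 76.8 CPM in T3 livers 1 to 4, a change of -2.45 ± 0.304 (adjusted p = 0.00151). Cyp2c67 averaged 27.3 ± 14.3 CPM in controls and 2.76 ± 0.559 CPM after T3 (-3.29 ± 0.37). Cyp2c29 (-3.37 ± 0.63) and Cyp2j5 (-2.25 ± 0.41) also fell, and for Cyp2c29 control 2, at 142 CPM, lay below T3 liver 1, at 164 CPM. Por, the reductase that supplies electrons to all microsomal P450s, rose and measured 184, 262, 427 and 396 CPM in controls 1 to 4 and 956, 1000.0, 601 and 1034 CPM in T3 livers 1 to 4, a change of 1.501 ± 0.31. The other raised members, Cyp2a22 (3.27 ± 0.73) and Cyp2g1 (1.67 ± 0.34), were at low level. Cyp2c29 lost its call without T3 liver 2, T3 liver 3 or T3 liver 4 (adjusted p up to 0.0625). Cyp2j5 lost its call without T3 liver 3 (adjusted p up to 0.0527). Por lost its call without T3 liver 1, T3 liver 2 or T3 liver 4 (adjusted p up to 0.0771). Cyp2a22 lost its call without control 1, control 3 or T3 liver 1 (adjusted p up to 0.0713). Cyp2g1 lost its call without T3 liver 1, T3 liver 2 or T3 liver 3 (adjusted p up to 0.0725). Without control 2, 13 members were lower and 3 higher, and without T3 liver 3, 2 were lower.

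Of 25 nuclear receptors tested 2 were higher and 1 lower, against 2.25% and 1.94% of all genes tested. Esr1, the estrogen receptor alpha, measured 5.29, 8.78, 7.01 and 8.01 CPM in controls 1 to 4 and 19.2, 27.97, 23.6 and 54.5 CPM in T3 livers 1 to 4, a change of 2.101 ± 0.33 (adjusted p = 0.00577). Ppard (1.67 ± 0.36) was higher and Pparg, the adipogenic receptor that rises in fatty liver, was lower, averaging 23.2 ± 5.08 CPM in controls and 6.41 ± 3.12 CPM after T3 (-1.84 ± 0.34). Among 23 hepatocyte identity factors 1 was called, Cebpb, which measured 104, 175, 273 and 163 CPM in controls 1 to 4 and 595, 658, 486 and 655 CPM in T3 livers 1 to 4, a change of 1.74 ± 0.29. Ppard lost its call without control 4 or each T3 liver (adjusted p up to 0.0870). Pparg lost its call without T3 liver 4 (adjusted p up to 0.0543).

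**Figure D3:**
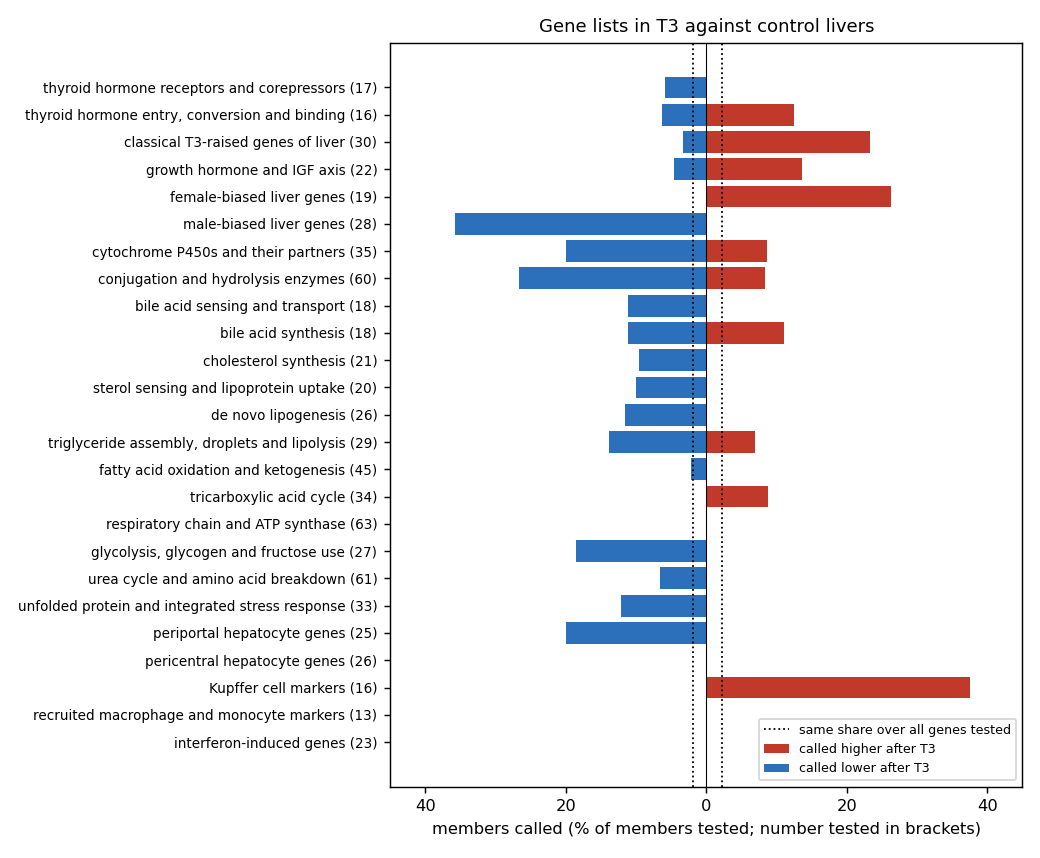
Share of the tested members of 25 gene lists called higher (red, to the right) or lower (blue, to the left) after T3, in percent of the members tested (the number in brackets), with dotted lines at the share over all genes tested (2.25% and 1.94%). Kupffer cell markers and female-biased genes stand out on the higher side, and male-biased genes and conjugation enzymes on the lower side.

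Bile acid synthesis and transport genes moved in both directions. Cyp7a1 measured 115, 87.3, 71.1 and 109 CPM in controls 1 to 4 and 109.6, 209, 290.1 and 279 CPM in T3 livers 1 to 4, a change of 1.21 ± 0.304 (adjusted p = 0.0494), but T3 liver 1 lay within the control range and the call was not made with the spread shared over 20 libraries (adjusted p = 0.0591). Cyp39a1, an oxysterol hydroxylase, rose from a mean of 33.3 to 94.7 CPM (1.51 ± 0.35). Scp2, whose product completes side-chain shortening in peroxisomes and carries sterols, measured 1428, 643, 823 and 783 CPM in controls 1 to 4 and 204, 298, 207 and 229 CPM in T3 livers 1 to 4, a change of -1.97 ± 0.29 (adjusted p = 0.00375). Akr1c14, a hydroxysteroid dehydrogenase, was also lower (-2.14 ± 0.49). Over the synthesis list 2 of 18 were higher and 2 lower, and of 18 sensing and transport genes Abcc3 and Ephx1 were lower and none higher (median -0.68). Cyp7a1 lost its call without each control, T3 liver 2, T3 liver 3 or T3 liver 4 (adjusted p up to 0.161). Cyp39a1 lost its call without control 4 or each T3 liver (adjusted p up to 0.116). Akr1c14 lost its call without each T3 liver (adjusted p up to 0.118).

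Sterol genes were lower where called. Insig1, which retains the sterol sensor in the endoplasmic reticulum and is itself a target of SREBP, measured 154, 105, 201 and 132 CPM in controls 1 to 4 and 43.2, 40.8, 27.3 and 20.5 CPM in T3 livers 1 to 4, a change of -2.17 ± 0.29 (adjusted p = 0.00246). Hmgcs1 (-1.101 ± 0.26), an early step of cholesterol synthesis, and the sterol carrier Stard4 (-1.47 ± 0.35) were also lower. The synthesis list gave 2 lower and none higher of 21 (median -0.42), and the sensing and uptake list 2 lower and none higher of 20 (median -0.04). Hmgcs1 lost its call without control 4 or each T3 liver (adjusted p up to 0.145). Stard4 lost its call without control 1, control 3 or each T3 liver (adjusted p up to 0.133).

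In fatty acid synthesis 3 of 26 genes were lower and none higher (median -0.45, from 1 lower without T3 liver 2, T3 liver 3, T3 liver 4 or control 4 to 6 without control 2), while 9 were lower and 1 higher with the spread shared over 20 libraries. Acly, which makes cytosolic acetyl-CoA, measured 686, 245, 268 and 632 CPM in controls 1 to 4 and 105, 103, 92.9 and 80.98 CPM in T3 livers 1 to 4, a change of -2.26 ± 0.35 (adjusted p = 0.00536). Scd1, the stearoyl-CoA desaturase and one of the most abundant messages of these livers, measured 38488, 16716, 22966 and 36785 CPM in controls 1 to 4 and 14242, 6365, 6594 and 6555 CPM in T3 livers 1 to 4, a change of -1.77 ± 0.400. Elovl3, a fatty acid elongase, averaged 133 ± 56.7 CPM in controls and 48.9 ± 9.504 CPM after T3 (-1.44 ± 0.33), with T3 liver 2 just above control 2. Fasn, the fatty acid synthase, averaged 1850.1 ± 1363 CPM in controls and 1133 ± 717 CPM after T3 (-0.71 ± 0.54, adjusted p = 0.460), and Srebf1, the transcription factor of the pathway, 959 ± 456 CPM in controls and 385 ± 66.02 CPM after T3 (-1.32 ± 0.36, adjusted p = 0.0709). Neither was called, and both overlapped. Srebf1 was called without control 2 (-1.58, adjusted p = 0.00530) and with the spread shared over 20 libraries (adjusted p = 0.0147). Scd1 lost its call without control 1, control 4, T3 liver 2, T3 liver 3 or T3 liver 4 (adjusted p up to 0.125). Elovl3 lost its call without control 1, control 4 or each T3 liver (adjusted p up to 0.114).

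Triglyceride genes were lower in 4 and higher in 2 of 29 (median -0.11, and 1 lower without T3 liver 3 or T3 liver 4). The esterase Ces1g averaged 117 ± 44.4 CPM in controls and 20.3 ± 10.2 CPM after T3 (-2.52 ± 0.41), the acyltransferase Gpam 299.9 ± 128 CPM in controls and 95.8 ± 14.7 CPM after T3 (-1.65 ± 0.298) and the droplet enzymes Hsd17b11 and Hsd17b13 changed by -1.23 ± 0.25 and -1.39 ± 0.32. The droplet coat protein Plin5 averaged 20.8 ± 3.17 CPM in controls and 37.8 ± 1.73 CPM after T3 (0.87 ± 0.18), and G0s2, an inhibitor of triglyceride lipase, rose by 1.31 ± 0.31 with overlap. Gpam lost its call without T3 liver 3 or T3 liver 4 (adjusted p up to 0.0581). Hsd17b11 lost its call without each T3 liver (adjusted p up to 0.0826). Hsd17b13 lost its call without control 1 or each T3 liver (adjusted p up to 0.122). Plin5 lost its call without control 4 or each T3 liver (adjusted p up to 0.0787). G0s2 lost its call without each control, T3 liver 1, T3 liver 2 or T3 liver 4 (adjusted p up to 0.144). Of 45 genes of fatty acid oxidation and ketogenesis 1 was lower, the medium-chain dehydrogenase Acadm (-1.03 ± 0.200), and none was higher (median -0.19). Acadm lost its call without T3 liver 1, T3 liver 2 or T3 liver 3 (adjusted p up to 0.0685).

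Calls among mitochondrial energy genes differed by list. In the tricarboxylic acid cycle list 3 of 34 were higher, against 2.25% of all genes tested, and none lower (median -0.16). Idh3a, a subunit of isocitrate dehydrogenase, measured 41.8, 40.1, 28.8 and 26.8 CPM in controls 1 to 4 and 76.96, 101, 112 and 90.3 CPM in T3 livers 1 to 4, a change of 1.47 ± 0.22 (adjusted p = 0.00421). The pyruvate dehydrogenase phosphatase Pdp2 averaged 27.5 ± 8.22 CPM in controls and 79.2 ± 19.02 CPM after T3 (1.53 ± 0.26). None of 63 respiratory chain and ATP synthase subunits was called by edgeR in either direction (median 0.06), 4 were higher and 2 lower at an unadjusted p under 0.05, and DESeq2 called none. Of 26 pumps, shuttles and uncouplers 2 were higher, Gpd2 and the mitochondrial coenzyme A carrier Slc25a42 (1.34 ± 0.34). Ppargc1a, the coactivator of mitochondrial genes, averaged 10.8 ± 2.14 CPM in controls and 7.27 ± 1.83 CPM after T3 (-0.57 ± 0.26, adjusted p = 0.214) and was not called. Gpd2 lost its call without control 2, control 3, control 4 or each T3 liver (adjusted p up to 0.150). Slc25a42 lost its call without control 1, control 2, control 4 or each T3 liver (adjusted p up to 0.144).

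Of 27 genes of glycolysis, glycogen and fructose use 5 were lower, against 1.94% of all genes tested, and none higher (median -0.44). The count was 1 without T3 liver 2, T3 liver 3 or T3 liver 4, 2 without T3 liver 1 or control 4, 3 without control 1 and 8 without control 2. Ppp1r3c, which brings the phosphatase that activates glycogen synthase to the glycogen particle, measured 33.7, 8.05, 29.9 and 21.8 CPM in controls 1 to 4 and 0.862, 1.72, 0.718 and 0.641 CPM in T3 livers 1 to 4, a change of -4.54 ± 0.505 (adjusted p = 0.000899). No T3 liver came near a control. Its relative Ppp1r3g averaged 23.4 ± 14.6 CPM in controls and 3.398 ± 2.94 CPM after T3 (-2.78 ± 0.56), Ugp2, which makes UDP-glucose, 346 ± 261 CPM in controls and 96.3 ± 17.5 CPM after T3 (-1.85 ± 0.43) and the fructose carrier Slc2a5 7.79 ± 3.17 CPM in controls and 2.77 ± 0.534 CPM after T3 (-1.49 ± 0.36). Ppp1r3g lost its call without T3 liver 2, T3 liver 3 or T3 liver 4 (adjusted p up to 0.0780). Ugp2 lost its call without control 4 or each T3 liver (adjusted p up to 0.127). Slc2a5 lost its call without control 1, control 3, control 4 or each T3 liver (adjusted p up to 0.136). The gluconeogenic enzymes G6pc (-0.61 ± 0.27, adjusted p = 0.208) and Pck1 (0.01 ± 0.33, adjusted p = 0.985) were not called. Pck1 averaged 1688 ± 752 CPM in controls and 1705 ± 350.0 CPM after T3.

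In nitrogen metabolism 4 of 61 genes of the urea cycle and amino acid breakdown were lower and none higher (median -0.29), and the count was 1 without any 1 T3 liver and 11 without control 2. Over all genes tested in the 8 libraries 1.94% were lower, the share to set beside this count and the periportal count below. Agxt2l1 was among the 4. The others were the aminotransferase Agxt2 (-1.64 ± 0.32), Tdo2, the first enzyme of tryptophan breakdown (-1.65 ± 0.39), and Upb1 of pyrimidine breakdown (-1.41 ± 0.35). Uox, the urate oxidase, averaged 3119 ± 2281 CPM in controls and 690.3 ± 72.5 CPM after T3 (-2.18 ± 0.42), with control 1 far above the other controls. Agxt2 lost its call without each T3 liver (adjusted p up to 0.0662). Tdo2 lost its call without each T3 liver (adjusted p up to 0.128). Upb1 lost its call without control 1, control 3, control 4 or each T3 liver (adjusted p up to 0.130). Uox lost its call without each T3 liver (adjusted p up to 0.0621). Genes of the periportal zone of the lobule were lower in 5 of 25 (median -0.40), among them Hsd17b6, Agxt2l1 and Uox, while 0 of 26 pericentral genes were called by edgeR (median -0.01). At an unadjusted p under 0.05, 3 pericentral genes were higher and 5 lower, and DESeq2 called 2 higher and 3 lower. Without control 2, 7 periportal and 5 pericentral genes were lower, and without any 1 T3 liver 2 periportal genes were.

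In the fit of the 8 libraries, stress genes were lower where called. Of 33 genes of the unfolded protein and integrated stress responses 4 were lower and none higher (median -0.28, and 0 lower without T3 liver 1 or T3 liver 2). Without control 2, 4 were lower and 3 higher. The 4 lowered in the 8 libraries were the chaperone Hspa5 (-0.98 ± 0.23), its cofactor Dnajb9 (-1.49 ± 0.28), Manf (-1.23 ± 0.24) and Herpud1 (-1.07 ± 0.23). Hspa5 averaged 593 ± 150.1 CPM in controls and 301 ± 32.7 CPM after T3, and no T3 liver reached a control. Gclc, the rate-limiting enzyme of glutathione synthesis, averaged 712 ± 234 CPM in controls and 183 ± 40.7 CPM after T3 (-1.96 ± 0.28, adjusted p = 0.00363), and glutathione reductase (Gsr) changed by -0.82 ± 0.204. Hspa5 lost its call without each T3 liver (adjusted p up to 0.132). Dnajb9 lost its call without T3 liver 1, T3 liver 2 or T3 liver 3 (adjusted p up to 0.0592). Manf lost its call without each T3 liver (adjusted p up to 0.0771). Herpud1 lost its call without T3 liver 1, T3 liver 2 or T3 liver 4 (adjusted p up to 0.110). Gsr lost its call without control 2 or each T3 liver (adjusted p up to 0.174). Fgf21, a fasting and stress hormone of liver, measured 1.02, 49.3, 6.82 and 2.796 CPM in controls 1 to 4 and 60.5, 94.99, 49.1 and 38.8 CPM in T3 livers 1 to 4. It was not called (2.01 ± 0.898, adjusted p = 0.215) and control 2 lay within the T3 range. It was called without control 2 (4.15, adjusted p = 0.00243).

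Other lists held few calls. Of 27 secreted metabolic signals Tsku was higher, averaging 118 ± 24.8 CPM in controls and 304 ± 71.2 CPM after T3 (1.37 ± 0.24, adjusted p = 0.0105), and Fst (-1.73 ± 0.401), a binding protein of activins, and Dpp4 (-0.94 ± 0.23), the protease that inactivates incretins, were lower. Among 40 coagulation and complement proteins C6 was lower (-1.77 ± 0.38) and complement component C2 higher. Of 22 clock genes and outputs 1 was lower, the repressor Bhlhe41 (-2.41 ± 0.52). Of 25 genes of insulin signalling and FOXO targets 1 was higher, the central kinase Akt1 (0.92 ± 0.22), and 1 lower, Ppp1r3g (-2.78 ± 0.56). Fst lost its call without control 1 or each T3 liver (adjusted p up to 0.116). Dpp4 lost its call without control 4 or each T3 liver (adjusted p up to 0.144). C6 lost its call without T3 liver 2, T3 liver 3 or T3 liver 4 (adjusted p up to 0.0790). C2 lost its call without control 4 or each T3 liver (adjusted p up to 0.141). Bhlhe41 lost its call without each T3 liver (adjusted p up to 0.0921). Akt1 lost its call without control 2, control 4 or each T3 liver (adjusted p up to 0.152). Ppp1r3g lost its call without T3 liver 2, T3 liver 3 or T3 liver 4 (adjusted p up to 0.0780). By edgeR none of 17 selenoproteins, 36 ribosomal proteins, 31 proteasome subunits, 22 amino acid carriers or 23 apolipoproteins and assembly factors was called, with medians of 0.07, 0.11, -0.31, 0.20 and -0.29. At an unadjusted p under 0.05 the counts, higher and lower, were 0 and 4 selenoproteins, 4 and 2 ribosomal proteins, 0 and 7 proteasome subunits, 5 and 3 carriers and 3 and 3 apolipoproteins. DESeq2 called 0 and 2, 1 and 0, 0 and 3, 4 and 2, and 3 and 2 of them.

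Kupffer cells are the resident macrophages of liver. Of their 16 tested markers 6 were higher and none lower (2.25% of all genes tested were higher), with a median of 0.92. In 11 the T3 livers all lay above the controls, which was true of 7.98% of all genes tested. Clec4f, a lectin made only by Kupffer cells within the liver, measured 83.97, 71.8, 67.6 and 74.9 CPM in controls 1 to 4 and 215, 184, 191 and 205 CPM in T3 livers 1 to 4, a change of 1.41 ± 0.18 (adjusted p = 0.00155). Timd4, a receptor for dying cells, averaged 2.898 ± 0.3304 CPM in controls and 7.94 ± 1.01 CPM after T3 (1.45 ± 0.24), the folate receptor Folr2 30.5 ± 6.92 CPM in controls and 71.7 ± 7.76 CPM after T3 (1.23 ± 0.21) and the secreted Cd5l 90.9 ± 32.1 CPM in controls and 212 ± 14.7 CPM after T3 (1.22 ± 0.25). The summed level of the 16 markers was 813 to 1389 CPM in controls and 1777 to 2182 CPM after T3. The summed hepatocyte markers, of which Alb was the largest part, were at 182477 to 316136 CPM in controls and 133663 to 179214 CPM after T3. Alb alone overlapped between the groups, and 6 of the 17 hepatocyte markers had changes above 0. The part of these markers in the result was not tested. With 1 library left out, 3 (without T3 liver 3 or T3 liver 4) to 8 (without control 2) Kupffer markers were called higher. More cells of a type and more RNA per cell cannot be told apart in whole liver. None of the 13 tested markers of recruited macrophages and monocytes was called by edgeR (median -0.22, with 0 higher and 1 lower at an unadjusted p under 0.05 and likewise by DESeq2), and their summed level overlapped, at 128 to 612 CPM in controls and 253 to 449.7 CPM after T3. Cd5l lost its call without each T3 liver (adjusted p up to 0.0667).

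None was called among 10 lymphocyte, 19 stellate cell and fibroblast, 20 sinusoidal endothelial and 11 cholangiocyte markers by edgeR. At an unadjusted p under 0.05 these held 4 higher lymphocyte markers, 3 lower stellate markers, 1 higher endothelial marker and 1 cholangiocyte marker in each direction, and DESeq2 called 1 lymphocyte marker higher and no other. One of 7 skeletal muscle markers was lower, Neb, which averaged 47.6 ± 19.7 CPM in controls and 12.9 ± 2.17 CPM after T3 (-1.88 ± 0.301). Its call was not made with the spread shared over 20 libraries (adjusted p = 0.0627). Neb was alike in controls 1 and 2 (64.2 and 65 CPM), where the muscle gene Acta1 was at 0.108 and 288 CPM. The elastases Cela1 and Cela2a, typical of pancreas, were higher. The pancreas genes Cpa1, Pnlip and Clps reached at most 3, 6 and 13 counts in any of the 8 libraries and were not tested. The erythroid heme enzyme Alas2 was lower. Cela2a measured 0.539, 0.537, 0.384 and 0.151 CPM in controls 1 to 4 and 3.82, 5.41, 5.74 and 4.49 CPM in T3 livers 1 to 4, a change of 3.52 ± 0.403. Cela1 lost its call without control 2, control 3, control 4 or each T3 liver (adjusted p up to 0.141). Alas2 lost its call without control 1, control 3, control 4, T3 liver 1, T3 liver 2 or T3 liver 4 (adjusted p up to 0.135). Of 20 G1 cyclins, inhibitors and related genes 1 was higher and none lower (5 higher without control 2). It was E2f8, a repressor of the cell cycle that is tied to polyploidy, which averaged 7.799 ± 2.91 CPM in controls and 40.02 ± 7.88 CPM after T3 (2.36 ± 0.29, adjusted p = 0.00130). Of 31 genes of DNA replication and mitosis none was called by edgeR (median 0.61, 25 of 31 above 0), with 5 higher and 1 lower at an unadjusted p under 0.05 and 2 higher by DESeq2. Without control 2, 6 of them were higher (3.87% of all genes tested there), and with glucagon 18 of 30 (17.8% of all genes tested there).

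Interferon-induced genes were not called by edgeR in the 8 libraries (0 of 23 in either direction, also at an unadjusted p under 0.05 and by DESeq2, median -0.34). Without control 2, the library in which they stood far above the rest, 11 of 23 were higher, against 3.87% of all genes tested there. Their summed level was 604 to 1509 CPM after T3. Acute phase genes and metallothioneins were called by edgeR in none of 28 (5 higher and 1 lower at an unadjusted p under 0.05, 1 lower by DESeq2) and varied widely among T3 livers. Saa1, an acute phase protein, measured 32.7, 89.8, 16.7 and 642 CPM in controls 1 to 4 and 286, 121, 563 and 2092 CPM in T3 livers 1 to 4, and Mt2, a metallothionein, 2.696, 60.3, 4.99 and 32.3 CPM in controls 1 to 4 and 103, 23.4, 75.98 and 547 CPM in T3 livers 1 to 4. T3 liver 4 was the highest of the T3 livers for both. Mt1, Saa2, Serpina1e, Mmp12, Hsd3b5 and Slco1a1 were the other genes of at least 20 CPM with the widest spread after T3, and Serpina1e ranged from 37.2 to 2149 CPM. Among the controls, the widest spread of genes not yet named was in Acta1 (skeletal actin, 0.108 to 288 CPM), Lcn2 (1.92 to 123 CPM), Gstm3 (9.82 to 518 CPM) and the interferon-induced Rsad2 (6.499 to 209 CPM) and Ifit1 (3.63 to 144 CPM). In the T3 group the male-biased Hsd3b5 and Slco1a1 were lowest in T3 liver 1, at 0.369 and 4.56 CPM, the liver with the highest Cyp3a16, Cux2 and Cyp3a44. Both genes also varied widely among controls 1 to 4, with Hsd3b5 at 188, 2.635, 97.9 and 5.21 CPM and Slco1a1 at 619, 34.1, 248 and 38.8 CPM. Controls 2 and 4 lay below T3 livers 2 to 4 for both. Male-biased genes were not all lowest in T3 liver 1, and Hsd17b6 was highest there, at 20.9 CPM.

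**Figure D4:**
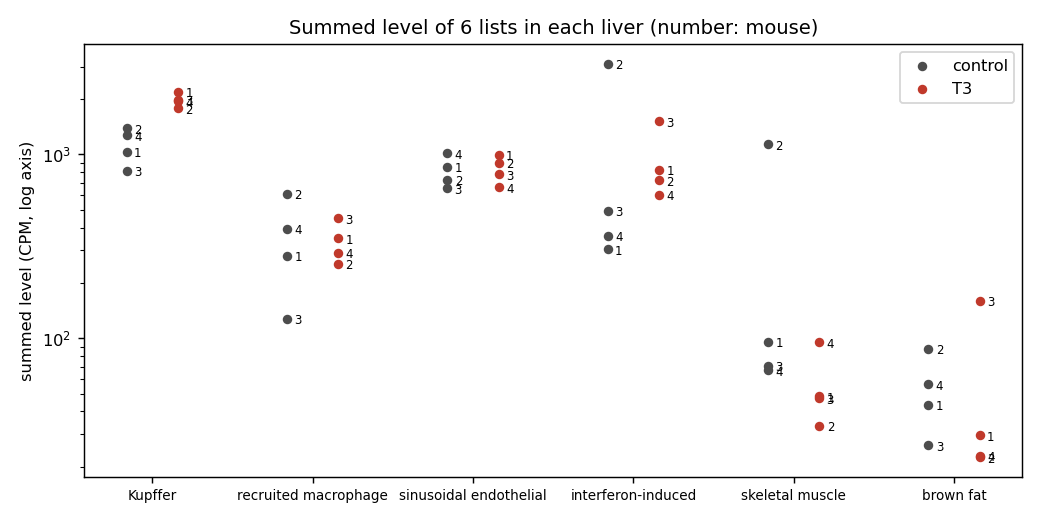
Summed CPM (log axis) of 6 gene lists in each control (grey) and T3 (red) liver, numbered by mouse. Kupffer cell markers separate the groups (813 to 1389 against 1777 to 2182 CPM), recruited macrophage markers do not, and control 2 stands apart for interferon-induced and muscle genes and T3 liver 3 for brown fat genes.

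By the difference in mean CPM, the largest rises of called genes were in Gstt1, Serpina6, Por, Sult1a1 and Cebpb. Gstt1, a glutathione transferase, averaged 809 ± 258 CPM in controls and 1717 ± 107 CPM after T3, and Serpina6, the carrier of corticosteroids in blood, 618 ± 209 CPM in controls and 1354 ± 97.1 CPM after T3. The largest falls were in Scd1, Uox, Car3, Inmt and Ghr. Car3, a carbonic anhydrase abundant in male liver, averaged 3039 ± 1748 CPM in controls and 673 ± 421 CPM after T3 (-2.17 ± 0.54), with T3 liver 2 above control 2. Gstt1 lost its call without control 3, control 4 or each T3 liver (adjusted p up to 0.136). Serpina6 lost its call without control 1, control 4 or each T3 liver (adjusted p up to 0.137). Car3 lost its call without control 1, control 3, control 4, T3 liver 1, T3 liver 3 or T3 liver 4 (adjusted p up to 0.150). The libraries on which the calls of Por, Sult1a1, Scd1, Uox and Ghr rested are named beside their values above.

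The series holds a further comparison of T3, given on top of glucagon, whose libraries lie within lanes 1 to 4 and share none with the comparison above. There 4177 of 12288 genes were called (34%), 2185 higher (17.8%) and 1992 lower (16.2%). Of the 270 genes raised by T3 alone 265 were tested, 209 were called higher and 8 lower, and 93.6% had the same sign. Of the 233 lowered genes 229 were tested, 198 were called lower and none higher, and 97.8% had the same sign. The median change of the raised genes was 1.19 with glucagon and 1.45 alone, and of the lowered genes -1.14 and -1.57. These genes were selected by their call in T3 alone, which by itself favours larger changes there. The medians therefore do not compare the size of the effect on the 2 backgrounds. All 16 Kupffer markers were called higher with glucagon, as were 22 of 23 interferon-induced genes and 14 of 18 female-biased genes.

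Among the largest changes alone, which were picked for their size there, the values with glucagon were close for some genes and smaller or larger for others. Sspo changed by 4.602 ± 0.22, Ugt2b37 by 4.33 ± 0.34, Cyp17a1 by 3.87 ± 0.21, Cyp4a12a by -7.47 ± 0.63, Hsd17b6 by -4.64 ± 0.46, Abcc3 by -2.74 ± 0.17 and Dio1 by 1.85 ± 0.197. By contrast Bcl3 changed by 2.49 ± 0.497 alone and 0.51 ± 0.103 with glucagon, Sucnr1 by -3.94 ± 0.73 and -1.47 ± 0.21, Serpina7 by -4.26 ± 0.36 and -2.59 ± 0.27, Ddah1 by -3.67 ± 0.69 and -2.04 ± 0.32. The pairs were 4.39 ± 0.71 and 2.73 ± 0.43 for Cxcl14, 4.59 ± 0.69 and 2.902 ± 0.63 for Ces4a and 5.29 ± 0.71 and 7.904 ± 0.94 for Cyp3a16. None of these 7 differences passed the edgeR interaction test (adjusted p from 0.0587 to 0.448). Bcl3 lost its call without control 4, T3 liver 2 or T3 liver 4 (adjusted p up to 0.0599). Sucnr1 lost its call without T3 liver 3 or T3 liver 4 (adjusted p up to 0.0595). Ddah1 lost its call without T3 liver 2 or T3 liver 3 (adjusted p up to 0.0591). The effect of T3 differed between the backgrounds for 370 of 12785 genes (2.89%, edgeR interaction term over 16 libraries). Fam13a fell by 2.69 on the log2 scale alone and changed by 0.15 ± 0.27 with glucagon (adjusted p of the difference = 0.00893). Cyp7a1 changed by 1.21 ± 0.304 alone and 4.28 ± 0.55 with glucagon (0.0138). Cyp7a1 lost its call without each control, T3 liver 2, T3 liver 3 or T3 liver 4 (adjusted p up to 0.161). Pck1 (0.01 ± 0.33 and -2.26 ± 0.21, 0.00484), Ppargc1a (-0.57 ± 0.26 and -3.65 ± 0.15, 1.07e-05) and Atp2a2 (0.18 ± 0.23 and -0.81 ± 0.11, 0.0405) were called lower after T3 with glucagon and were not called alone, and each passed the test of the difference. A change with glucagon is measured from the level in glucagon livers, so it is not a change from control.

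**Figure D5:**
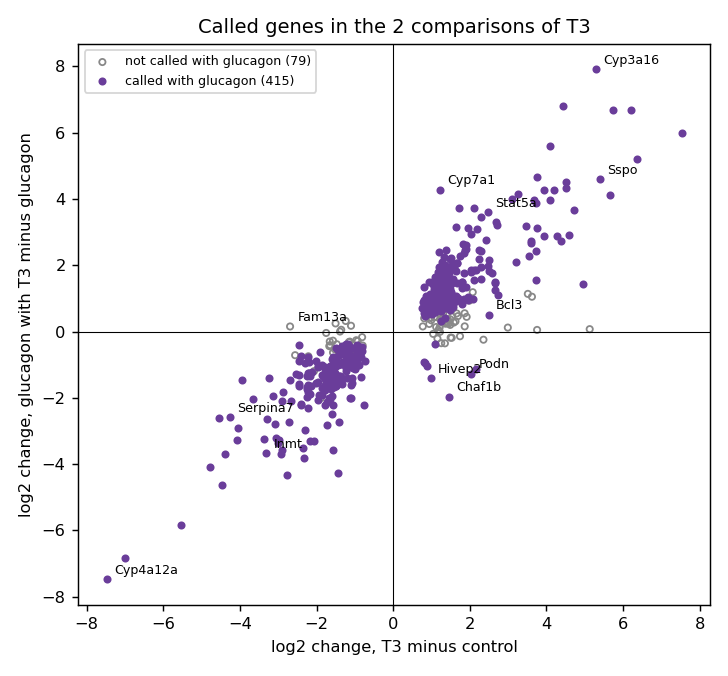
Log2 change of the 494 genes called in T3 against control and tested in both comparisons, T3 minus control (horizontal axis) against combination minus glucagon (vertical axis). Most points share their sign on both axes, and filled points were also called with glucagon.

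The 8 genes raised by T3 alone and called lower with glucagon, chosen after their values were seen, included Podn, Hivep2, Chaf1b, Slc2a1, Mcart1 and Lipg. Each gene named had more raw counts in every glucagon liver than in any control, so the 2 changes start from different levels. In counts not scaled to depth, Chaf1b had 21 to 80 in controls, 637 to 1380 with glucagon and 167 to 393 in the combination. Hivep2 had 215 to 495, 673 to 1860 and 321 to 573. Podn, a proteoglycan of the extracellular matrix, measured 3.94, 9.71, 6.72 and 7.56 CPM in controls 1 to 4 and 30.3, 31.3, 21.2 and 32.7 CPM in T3 livers 1 to 4, a change of 2.04 ± 0.28 alone and -1.27 ± 0.26 with glucagon. Chaf1b, a histone chaperone subunit, changed by 1.46 ± 0.34 and -1.96 ± 0.19, and Slc2a1, a glucose transporter, by 0.81 ± 0.17 and -0.93 ± 0.11. Hivep2 lost its call without control 4, T3 liver 2, T3 liver 3 or T3 liver 4 (adjusted p up to 0.0742). Chaf1b lost its call without control 1, control 3, control 4 or each T3 liver (adjusted p up to 0.130). Slc2a1 lost its call without control 4 or each T3 liver (adjusted p up to 0.104). Mcart1 lost its call without control 3, control 4 or each T3 liver (adjusted p up to 0.143). Lipg lost its call without each T3 liver (adjusted p up to 0.0777).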

How the data were processed

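Liver RNA of 4 control and 4 T3 mice was compared, 1 library per mouse. The values are whole-number counts per gene symbol as the authors deposited them, 1 file per library, and per the submitters' processing notes HTSeq and mm10 were used. Per the labels' protocols, a Qiagen kit gave the RNA and a Lexogen kit the libraries. Aligner, annotation, strand setting and versions are not stated there, so reads of near-identical copies, overlapping genes and antisense genes may be split or mixed. The same 13319 symbols stand in each file, no other sample's column was present, and library totals ran from 6091917 to 23195658 counts.

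Symbols were kept by filterByExpr (minimum count 10, minimum total 15), which left 12015. TMM normalisation and edgeR 4.0.16 quasi-likelihood tests (R 4.3.3) were run on the 8 libraries alone, because the controls had a biological coefficient of variation of 40.6% against 18.1% to 21.2% in the other groups, with Benjamini-Hochberg adjustment over all genes tested and calls under 0.05. The fit was also run on simulated counts in which all genes of a group shared a common dispersion and no library stood apart. Those counts were simpler than these data, so that run does not test the calls made here. The members, lists and panel were chosen with earlier results of these data known. Counts over a list use the adjustment over all genes.

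Genes were named by rule: among called genes without overlap and with a mean of at least 20 CPM, up to 15 at either extreme of the change, predicted symbols left out, up to 4 called members of smallest p per direction of each list, a panel of thyroid hormone genes, the 5 largest rises and falls in CPM, and, untested, the 8 genes with the widest spread per group. Genes outside it are said to be chosen after their values were seen. A few of the genes so chosen are left out of the text. The interaction test over 16 libraries, list counts in the combination and the brown fat list were added after the data were seen.

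Alternatives were a spread shared over all 20 libraries, RLE factors, no filter, a mean of at least 5 CPM, DESeq2 1.42.0, robust estimation, limma 3.58.1 voom with quality weights, replicate number as a block, each library left out, and, added later, controls 1 and 2 left out together. Mice are the replicates, per the series design. Upstream sequences are RefSeq windows of GRCm38.p6, present for 8692 of the tested symbols. Gene positions are RefSeq's.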

Additional observations from a re-analysis of the deposited data

Results flagged for a closer look

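Of 324 groups of 4 libraries examined (a named gene or a summed list, in the controls or after T3), 32 held 1 library far from the other 3 by Dixon's criterion, which chance alone meets in about 5% of groups. Several of these genes were chosen for their wide spread and the brown fat list for its level in T3 liver 3, so the tally is not to be read against that rate. Each value is given with the range of the other 3 livers of its group. Control 1 stood apart in Sucnr1 (228 against 19.8 to 46.3 CPM), Mup20 (205 against 54.6 to 77.001 CPM) and Acadm (69.5 against 45.9 to 48.8 CPM). The same library differed in Hmgcs1 (74.6 against 38.98 to 44.97 CPM), Akr1c14 (415 against 87.9 to 129.8 CPM) and Tdo2 (539.8 against 164 to 176 CPM). The same library differed in Uox (6527 against 1702 to 2191 CPM). Control 2 stood apart in Cyp4a31 (8.49 against 1.08 to 2.19 CPM), Manf (129.8 against 63.9 to 73.3 CPM) and Fgf21 (49.3 against 1.02 to 6.82 CPM). The same library differed in Acta1 (288 against 0.108 to 4.801 CPM), Rsad2 (209 against 6.499 to 12.1 CPM) and Ifit1 (144 against 3.63 to 10.2 CPM). The same library differed in Cox8b (32.4 against 0.755 to 1.06 CPM), skeletal muscle markers (1136 against 66.9 to 95.7 CPM) and interferon-induced genes (3113 against 304 to 493 CPM). Control 4 stood apart in Cyp3a44 (2.49 against 0.634 to 0.917 CPM), Cyp2g1 (2.57 against 1.19 to 1.37 CPM) and Saa1 (642 against 16.7 to 89.8 CPM). T3 liver 1 stood apart in Cyp3a16 (299 against 38.1 to 72.9 CPM), Nt5e (92.96 against 45.1 to 48.6 CPM) and Ddah1 (59.2 against 4.49 to 13.2 CPM). The same library differed in Scd1 (14242 against 6365 to 6594 CPM), Ppp1r3g (7.76 against 1.56 to 2.57 CPM) and Cyp2a22 (54.1 against 6.74 to 8.85 CPM). T3 liver 2 stood apart in Sucnr1 (8.58 against 4.07 to 4.68 CPM) and Stard4 (36.8 against 22.3 to 23.7 CPM). T3 liver 3 stood apart in Pdp2 (50.9 against 86.1 to 90.1 CPM, low), Cox8b (47.98 against 0.862 to 4.01 CPM) and brown fat genes (160.2 against 22.6 to 29.7 CPM). T3 liver 4 stood apart in E2f8 (51.8 against 35.1 to 36.7 CPM) and Mt2 (547 against 23.4 to 103 CPM).

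The effect of T3 with glucagon minus the effect of T3 alone passed the edgeR interaction test over 16 libraries for 19 of the 151 genes named. Each difference is on the log2 scale, with its adjusted p in brackets. The difference was 2.85 for Fam13a (0.00893), 1.27 for Hmgcs1 (0.0292), 3.06 for Cyp7a1 (0.0138), -2.82 for Elovl3 (0.000976), -2.27 for Pck1 (0.00484) and -3.08 for Ppargc1a (1.07e-05). For regulators and drug-handling genes it was 1.13 for Stat5a (0.0175), -1.88 for Cebpb (0.00566), -1.68 for Por (0.0134) and 2.06 for Cyp3a11 (0.00131). It was -2.60 for E2f8 (0.00152), -0.99 for Atp2a2 (0.0405) and -4.94 for Mt2 (0.03103). For genes chosen because they went in opposite directions, which fixes the sign and leaves these p-values descriptive, the difference was -3.31 for Podn (0.000163), -2.40 for Hivep2 (5.45e-05), -1.73 for Slc2a1 (4.71e-05), -1.78 for Mcart1 (5.85e-05), -1.45 for Lipg (0.00284) and -3.43 for Chaf1b (5.85e-05).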

How the results depend on the processing

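The 503 genes called became 2317 when all 20 libraries shared 1 spread, 1212 with DESeq2, 1167 with voom and quality weights, and 939 without controls 1 and 2 together, a choice made after seeing the data. RLE factors (502), no filter (448), a 5 CPM mean filter (449) and robust estimation (512) kept the count within 1.5 times. Leaving out 1 library gave 188 (without T3 liver 4) to 886 (without control 2), and fewer samples are tested there. The replicate numbers do not pair the libraries (correlations of same-numbered libraries -0.31 to -0.15), and with replicate number as a block 214 genes were called. In the combination against glucagon the 4177 calls ran from 3530 to 3831 with 1 library left out and were 2906 with the spread shared over 20 libraries, 4194 with RLE factors, 4130 without the filter, 4352 with DESeq2 and 4001 with the replicate block.

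Some changes that were not called turned sign, and the cause was not tested. With voom and quality weights Thrsp was at 0.16, Ncor1 at 0.051, Rsad2 at 0.38 and Ifit1 at 0.21. With the replicate block Thrsp was at 0.43, Crym at 0.030, Serpina1e at -0.61, Mmp12 at 0.49, Acta1 at 0.49 and Rsad2 at 0.35. Without controls 1 and 2 together Thrsp was at 0.18, Crym at 0.11, Pck1 at -0.061, Mmp12 at 0.35, Acta1 at 0.74, Rsad2 at 1.21 and Ifit1 at 1.30. Pck1 was at -0.000145 with the shared spread, -0.0021 with RLE factors and -0.0021 with DESeq2. With 1 library left out the changes ran from -0.57 to 0.61 for Thrsp, -0.044 to 0.42 for Me1, -0.45 to 0.28 for Crym, -0.15 to 0.016 for Ncor1, -0.20 to 0.30 for Pck1, -1.08 to 0.50 for Serpina1e, -0.78 to 0.87 for Mmp12, -4.33 to 1.37 for Acta1, -1.95 to 1.37 for Rsad2, -2.21 to 0.88 for Ifit1 and -1.77 to 3.93 for Cox8b. Among other changes not called, Cpt1a, Ucp2, Ppargc1a, Slc16a10, Mt1 and Mt2 were called with the shared spread. The T3 libraries are the shallowest of the series, which limits genes near 3 counts.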

Other observations

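Genes of brown and white fat varied between libraries. Their list was written after the levels of that library were seen, and its sum was 160.2 CPM there against 22.6 to 29.7 CPM in the other T3 livers and 26.1 to 87.8 CPM in controls. Ucp1, the uncoupling protein of brown fat, had 115 counts in T3 liver 3, 3 counts in T3 liver 2 and 0 in T3 livers 1 and 4 and in every control, and it was not tested. Other members were high elsewhere too. Cidea had 72 counts in T3 liver 3 and 148 in control 4, and Cox8b 401 in T3 liver 3 and 663 in control 2, while Plin1 had 58 in T3 liver 3 and at most 12 in a control. Outside the comparison, glucagon liver 3 had 3305 counts of Cox8b, 217 of Cidea, 182 of Adipoq and 116 of Plin1 but 2 of Ucp1, and combination liver 2 had 46 of Ucp1.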
